A study of Mus musculus with 6 samples.

Results

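The transcripts of 10 transcription factors that drive the making of fat cells were followed across fat depots of mice lacking Kdm4b, a histone H3 demethylase gene. The factors were the C/EBP genes Cebpa, Cebpb and Cebpd, the Krüppel-like factor genes Klf4, Klf5, Klf9 and Klf15, and Ebf1, Stat5a and Zfp423. They were taken by name, as every probe set annotated to 1 of these symbols alone. This gave 26 of the 34958 probe sets with 1 symbol and 10 of 18194 genes. The rule itself used no measured value, but the factors were chosen with earlier results of these data known. Male mice were either whole-body Kdm4b knockouts (KO) or wild type (WT), all aged 2 months, on chow, at room temperature and fasted for 6 hours. Total RNA of brown, subcutaneous and epididymal fat was hybridised to Affymetrix arrays, 1 array for each depot and genotype and 6 in all. The labels name neither the deleted exons nor how many mice gave a sample. The deletion was in every tissue, so a difference in fat need not start in fat cells.

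Fat cells arise from fibroblast-like precursors through a cascade of transcription factors. C/EBPβ and C/EBPδ act early, KLF4 helps to switch on Cebpb, and KLF5, KLF9, EBF1 and STAT5A act between these early factors and PPARγ, the nuclear receptor that commits a cell to the fat lineage. C/EBPα and KLF15 act late and stay on in mature fat cells, while ZFP423 marks committed precursors and, in mature white fat cells, holds back the heat-producing programme of brown fat. C/EBPβ also works with PRDM16 in brown fat cells, and its transcription answers to cAMP.

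Signals are MAS5 values on a linear scale. A signal of 63.2, the 40th percentile of the probe sets (median over the arrays), served as a floor under which values were not told apart. Of the 26 probe sets, 24 lay above the floor on at least 3 arrays, 21 on all 6, and 1 on none. By the brightest probe set of each gene, 9 of the 10 genes lay above it on every array, all but Klf5. With 1 array per depot and genotype no test exists within a depot. The error available there is the SD between probe sets of the same gene, 0.32 in brown, 0.32 in subcutaneous and 0.31 in epididymal fat on the log2 scale. This SD is read on the same arrays and does not measure the spread between mice. Between depots and over depots, limma was fitted to all 6 arrays. Its p-values treat the genotypes or the depots as replicates and do not measure the spread between mice. The labels held for brown against white fat. The 9 brown adipocyte markers summed to 173717 in KO and 193800 in WT brown fat, against 15405.6 to 21230.4 on the white arrays. These sums do not tell the white depots apart or show how pure a sample was. Kdm4b had signals of 95.2 in KO and 134.6 in WT brown fat, 156.7 in KO and 272.1 in WT subcutaneous fat, and 188.4 in KO and 226.7 in WT epididymal fat.

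The 250 bases before a RefSeq transcription start are shown for 4 of the factors. Cebpb and Klf9 are shown because their transcripts were higher in brown fat, and Klf15 and Zfp423 because theirs differed most between KO and WT. Stat5a, also higher in brown fat, is not shown and held neither motif marked below. The sequences are those of RefSeq on GRCm38.p6, whose promoter table matched 8 of the 10 factors with 11 promoters, Cebpd and Klf5 being the others. Each is printed in the direction of transcription, Cebpb at chr2:167688665-167688914, Klf9 at chr19:23140976-23141225 and Klf15 at chr6:90462326-90462575 from the plus strand, and Zfp423 at chr8:87959596-87959845 from the minus strand. The Klf15 and Zfp423 windows lie inside the RefSeq gene spans, chr6:90461043-90491803 and chr8:87661810-87962053, so the start used is not the outermost one. Capitals mark TGACG, the core of the cAMP response element, and CACGTG, an E-box, each on either strand.
Cebpb: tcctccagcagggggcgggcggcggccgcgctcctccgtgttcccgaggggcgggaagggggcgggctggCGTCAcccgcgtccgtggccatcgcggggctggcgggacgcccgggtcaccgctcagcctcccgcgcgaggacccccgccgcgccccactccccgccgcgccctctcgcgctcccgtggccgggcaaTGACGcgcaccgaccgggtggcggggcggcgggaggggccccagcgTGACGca
Klf9: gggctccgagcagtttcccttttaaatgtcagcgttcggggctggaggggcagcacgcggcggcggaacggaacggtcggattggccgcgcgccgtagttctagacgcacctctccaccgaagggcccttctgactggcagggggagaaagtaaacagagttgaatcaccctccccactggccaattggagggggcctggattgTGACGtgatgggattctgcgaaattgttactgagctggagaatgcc
Klf15: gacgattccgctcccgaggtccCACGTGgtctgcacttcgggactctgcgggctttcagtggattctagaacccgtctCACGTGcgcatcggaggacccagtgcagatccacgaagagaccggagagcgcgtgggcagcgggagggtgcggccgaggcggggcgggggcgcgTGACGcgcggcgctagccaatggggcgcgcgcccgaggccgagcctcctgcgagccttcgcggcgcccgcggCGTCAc
Zfp423: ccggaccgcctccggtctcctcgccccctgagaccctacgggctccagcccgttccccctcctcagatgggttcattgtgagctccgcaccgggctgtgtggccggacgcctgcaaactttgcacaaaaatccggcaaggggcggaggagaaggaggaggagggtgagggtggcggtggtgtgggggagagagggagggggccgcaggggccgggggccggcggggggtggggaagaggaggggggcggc
The Cebpb stretch held 3 cAMP-element cores, Klf9 held 1, Klf15 held 2 together with 2 E-boxes, and Zfp423 held neither. The bases were 81.6% G or C in Cebpb, 59.6% in Klf9, 72.0% in Klf15 and 71.6% in Zfp423. Among 32851 promoters of the same length, 17.8% held the core and 6.02% the E-box. The core was present in 4 of the 11 promoters of the factors, for 4 of the 8 matched factors (Cebpb, Klf4, Klf9 and Klf15). The E-box was present in 2 of the 11, for Klf4 and Klf15. TTNNGCAA, a C/EBP-type site, was found for Zfp423 alone among them (9.56% of all promoters), TTCNNNGAA, a STAT-type site, for Klf9 alone (7.02%), and ACANNNTGT, the core of a glucocorticoid response element, for none (5.84%). CCACNCCC, a KLF-type site, was found in 3 of the 11 promoters, for Cebpb, Ebf1 and Zfp423 (15.9%). The full cAMP element, which contains the core, was found for none (TGACGTCA, 1.55%). All motifs were read on both strands, and these matches describe letters in a short window.

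The largest differences in these factors lay between brown and white fat. Set against both white depots, brown fat had 3 of 10 factors that rose (Cebpb, Stat5a and Klf9) and 3 that fell (Cebpd, Zfp423 and Klf4) in limma at an adjusted p under 0.05. Of all 13233 genes tested, 21.5% rose and 31.2% fell, so the share of the factors that moved was near that of all genes. Both brown arrays lay above all 4 white arrays for 3 of the factors, against 26% of genes, and below all 4 for 3, against 34.1%. The median log2 difference of the factors was 0.17, against -0.11 for all genes, and quantile normalization turned it to -0.14, against -0.01. Fitted on every probe set, 6 of 24 rose and 5 fell, against 20% and 27.2% of all probe sets.

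**Figure D1:**
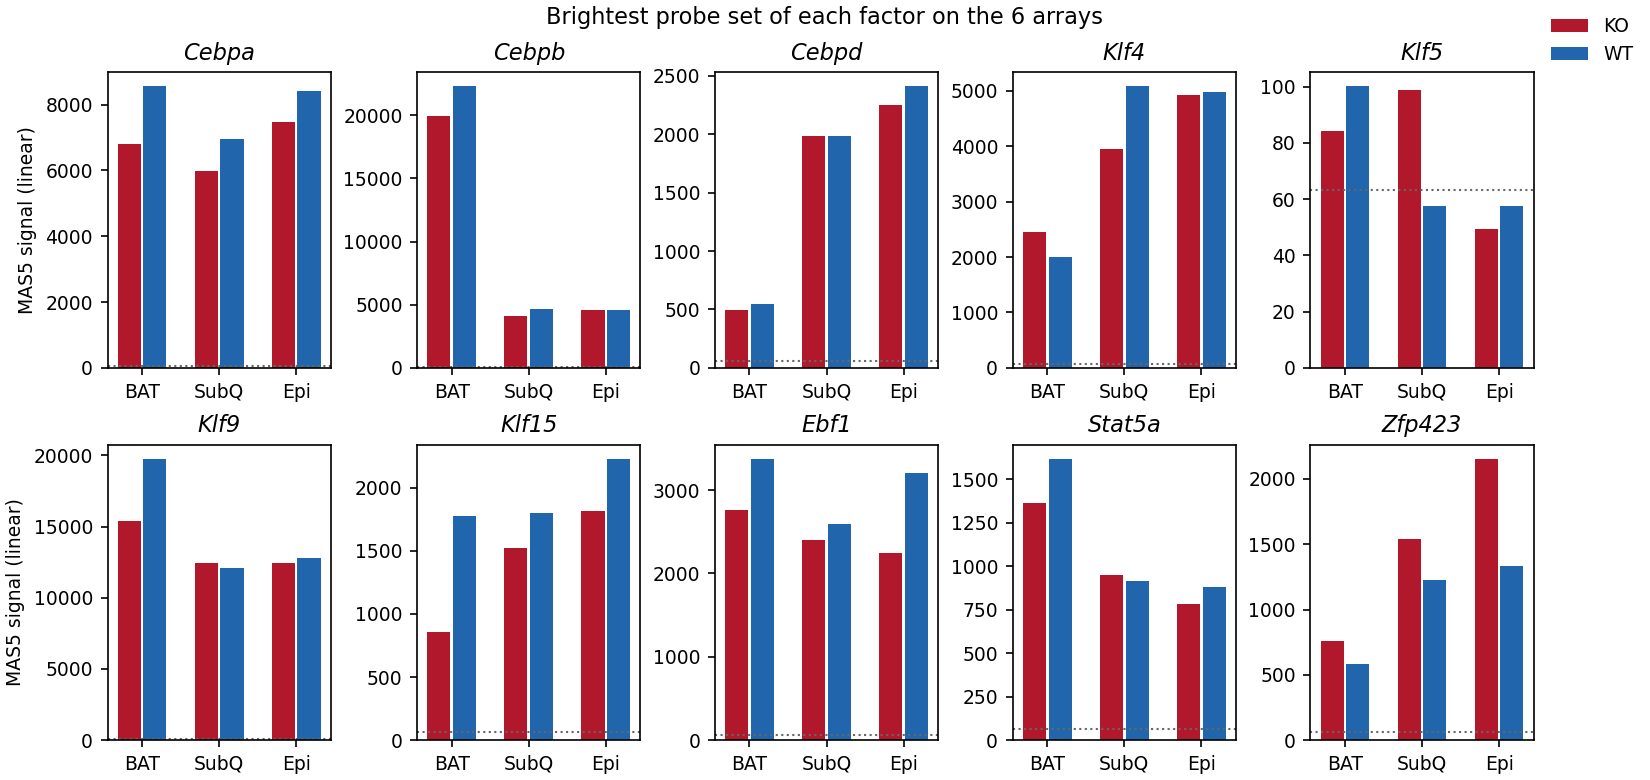
Linear MAS5 signal of the brightest probe set of each factor, with KO (red) left of WT (blue) in brown (BAT), subcutaneous (SubQ) and epididymal (Epi) fat, 1 array per bar and its own axis from 0 for each gene. The dotted line is the floor of 63.2. Cebpb stands highest in brown fat, Cebpd, Klf4 and Zfp423 stand lowest there, and Klf5 lies near the floor throughout.

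Cebpb and Cebpd, the early pair, went opposite ways between brown and white fat. Cebpb had signals of 19923.0 in KO and 22290.5 in WT brown fat, against 4110.0 and 4688.9 in KO and WT subcutaneous and 4568.8 and 4619.2 in KO and WT epididymal fat. The brown arrays stood apart from the white ones, which lay close together. Cebpb was 4.69-fold higher in brown fat (log2 difference 2.23 ± 0.12 SE, limma adjusted p = 0.000441, 2 against 4 arrays), 4.60-fold in the KO arrays and 4.79-fold in the WT arrays. Its other probe set read 4607.6 and 5554.8 in KO and WT brown fat against 942.3 to 1033.5 on the white arrays, 5.14-fold higher (limma adjusted p = 0.0005 in the fit on probe sets).

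Cebpd had signals of 492.9 in KO and 543.5 in WT brown fat, against 1981.8 and 1983.8 in KO and WT subcutaneous and 2249.2 and 2408.6 in KO and WT epididymal fat. Every brown value lay below every white value. Cebpd was 4.15-fold lower in brown fat (-2.05 ± 0.12 SE, limma adjusted p = 0.00046, 2 against 4 arrays), 4.28-fold in the KO arrays and 4.02-fold in the WT arrays. Its dimmer probe set read 103.8 in KO and 104.6 in WT brown fat against 173.9 to 319.2 on the white arrays, 2.06-fold lower (limma adjusted p = 0.0088 in the fit on probe sets).

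Between KO and WT the early pair lay close together by its bright probe sets. Cebpb differed by -0.16 in brown, -0.19 in subcutaneous and -0.02 in epididymal fat on the log2 scale (mean -0.12 ± 0.09 SD, n = 3 depots), all within the SD between probe sets. Cebpd differed by -0.14, by less than 0.01 and by -0.10 in brown, subcutaneous and epididymal fat (mean -0.08 ± 0.07 SD, n = 3 depots), likewise within it. The dimmer Cebpd probe set was the exception, with 208.8 in KO and 319.2 in WT epididymal fat (-0.61), where the brighter set differed by -0.10. In limma over depots neither gene passed, with adjusted p = 0.767 for Cebpb and 0.853 for Cebpd.

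Klf4, which encodes an early activator of Cebpb, was lower in brown fat. Its signals were 2447.2 in KO and 1999.0 in WT brown fat, against 3948.6 and 5081.2 in KO and WT subcutaneous and 4933.6 and 4980.9 in KO and WT epididymal fat, with no overlap between brown and white. It was 2.13-fold lower (-1.09 ± 0.17 SE, limma adjusted p = 0.00535, 2 against 4 arrays), 1.80-fold in the KO arrays and 2.52-fold in the WT arrays. With no filter on low signals the adjusted p was 0.0549. The other probe set had 794.9 in KO and 709.8 in WT brown fat against 1568.1 to 2198.3 on the white arrays, 2.47-fold lower. Between KO and WT the log2 difference of the brighter set was 0.29 in brown, -0.36 in subcutaneous and -0.01 in epididymal fat, and that of the other set 0.16, -0.26 and -0.27, so both sets were higher in KO brown fat and lower in KO subcutaneous fat.

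Klf5, an activator of Pparg downstream of the early C/EBPs, was hardly detected. Its brightest probe set had signals of 84.2 in KO and 100.1 in WT brown fat, 98.9 in KO and 57.5 in WT subcutaneous fat, and 49.5 in KO and 57.7 in WT epididymal fat, above the floor on 3 of 6 arrays. That set was at least 1.57-fold higher in KO subcutaneous fat, while another Klf5 set had 73.8 in KO and 83.9 in WT there and so ran the other way. The second set had 60.7 in KO and 80.9 in WT brown fat and 65.1 in KO and 91.4 in WT epididymal fat, and the last set stayed under the floor on all arrays. These values set no direction for Klf5, and its brown-to-white difference did not pass (0.38 ± 0.21 SE, limma adjusted p = 0.192).

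Klf9, which encodes an activator of Pparg in the middle of differentiation and answers to glucocorticoids, was above the floor on all arrays by 6 of its 7 probe sets. The brightest set read 15425.3 in KO and 19778.1 in WT brown fat, against 12411.3 and 12092.3 in KO and WT subcutaneous and 12432.9 and 12762.1 in KO and WT epididymal fat. The brown arrays lay above the white ones, and the WT brown array above the KO brown array. Klf9 was 1.41-fold higher in brown fat (0.49 ± 0.14 SE, limma adjusted p = 0.0366, 2 against 4 arrays), 1.24-fold in the KO arrays and 1.59-fold in the WT arrays. The call was lost in 8 of 16 alternatives. After quantile normalization the difference was -0.09 (adjusted p = 0.589), and the adjusted p was 0.214 without the brown WT array, 0.102 without the subcutaneous WT array, 0.110 without the epididymal WT array and 0.0845 without the epididymal KO array.

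The other Klf9 probe sets spread in size. One read 14500.5 in KO and 18191.3 in WT brown fat against 8617.4 to 12851.9 on the white arrays and was 1.58-fold higher in brown fat (limma adjusted p = 0.0115 in the fit on probe sets). The remaining 4 sets above the floor on all arrays had brown-minus-white log2 differences of -0.28 to 0.34 and none passed, and a dim set was above the floor on 2 arrays. Between KO and WT the brightest set differed by -0.36 in brown, 0.04 in subcutaneous and -0.04 in epididymal fat (mean -0.12 ± 0.21 SD, n = 3 depots). Of the 6 sets above the floor, 5 were lower in KO brown fat (-0.37 to 0.06 over the 6), 1 in subcutaneous fat (-0.24 to 0.30) and all 6 in epididymal fat (-0.56 to -0.04).

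Stat5a encodes a transcription factor that growth hormone and prolactin switch on and that promotes fat cell formation. Its signals were 1360.9 in KO and 1618.1 in WT brown fat, against 951.4 and 915.6 in KO and WT subcutaneous and 779.8 and 880.3 in KO and WT epididymal fat, with every brown value above every white one. It was 1.69-fold higher in brown fat (0.75 ± 0.13 SE, limma adjusted p = 0.0075, 2 against 4 arrays), 1.58-fold in the KO arrays and 1.80-fold in the WT arrays. Without the brown WT array the adjusted p was 0.0537. A dimmer probe set was also higher in brown fat, by 1.66-fold (limma adjusted p = 0.0314 in the fit on probe sets), but it was higher in KO than in WT brown fat (202.6 against 144.3), where the bright set was lower. Stat5b, its near relative on the same array, differed by 0.00 on the log2 scale between brown and white fat (limma adjusted p = 0.993).

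Ebf1, needed early in both fat cell and B cell formation, did not pass between brown and white fat. Its brightest probe set had 2758.3 in KO and 3378.0 in WT brown fat, 2399.8 and 2590.7 in KO and WT subcutaneous fat, and 2243.4 and 3201.9 in KO and WT epididymal fat, so the depots overlapped. The difference was 0.24 ± 0.14 SE (limma adjusted p = 0.206), and it turned to -0.13 as the mean of all 5 Ebf1 probe sets. The other sets gave -0.39, -0.27, -0.38 and, for a dim set, 0.13. In the fit on probe sets 0 of the 5 passed. The 6 measured B cell markers summed to 1319.8 in KO and 984.5 in WT brown fat, against 13801.6 to 26358.1 on the white arrays, with most of the epididymal sums from Ighm alone (15521.3 in KO and 12786.0 in WT). The part of B cells in the Ebf1 signal was not tested. Its relatives Ebf2 and Ebf3 rose in brown fat, by 1.61-fold (limma adjusted p = 0.0139) and 1.58-fold (limma adjusted p = 0.0110).

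Ebf1 was lower in KO by its brightest probe set in each depot, with log2 differences of -0.29 in brown, -0.11 in subcutaneous and -0.51 in epididymal fat (mean -0.31 ± 0.20 SD, n = 3 depots, limma adjusted p = 0.621). A second set gave -0.23, -0.27 and -0.55 in the same depots. Another set, with 1752.9 in KO and 1555.4 in WT brown fat, gave 0.17, -0.09 and -0.11. A further set gave -0.19, 0.03 and 0.14, and a dim set -0.50, -0.36 and -0.31. In each depot 4 of the 5 sets were lower in KO and 1 was higher.

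Cebpa, the late C/EBP that keeps mature fat cells in their state, did not pass between brown and white fat. Its signals were 6795.1 in KO and 8555.6 in WT brown fat, 5976.0 and 6941.3 in KO and WT subcutaneous fat, and 7472.8 and 8398.7 in KO and WT epididymal fat. The brown-to-white difference was 0.09 ± 0.12 SE (limma adjusted p = 0.546), and quantile normalization turned it to -0.19. In each depot the KO array was the lower, with log2 differences of -0.33 in brown, -0.22 in subcutaneous and -0.17 in epididymal fat, a mean of -0.24 ± 0.08 SD over 3 depots. That is 1.18-fold lower, and over 13233 genes it did not pass (limma adjusted p = 0.631). The brown difference was the only one of the 3 larger than the SD between probe sets, and barely so (-0.332 against 0.325). Over the alternatives tried it ranged from -0.33 to -0.19. Cebpa had a single probe set.

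**Figure D2:**
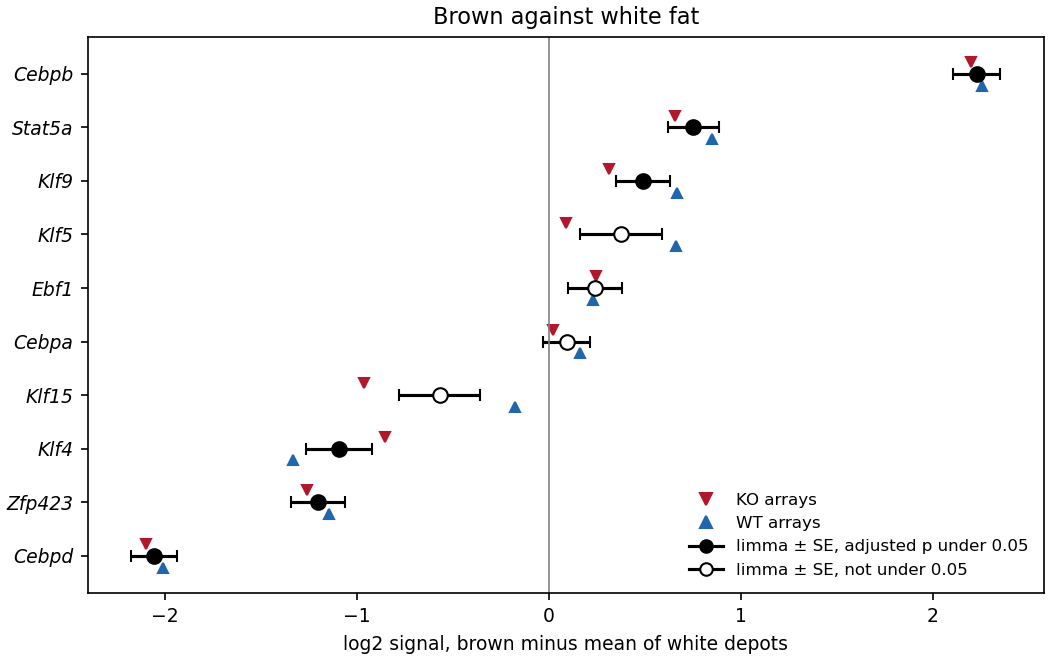
Log2 difference of brown minus the mean of the white depots for each factor (x axis), with the limma estimate ± SE over 6 arrays as a circle, filled where the adjusted p was under 0.05. Triangles give the difference within the KO arrays (above the circle) and within the WT arrays (below it). Cebpb lies farthest to the right and Cebpd farthest to the left, and the KO and WT triangles of Klf15 lie farthest apart, at -0.96 and -0.17.

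Klf15, a late factor that raises amino acid breakdown and the glucose transporter gene Slc2a4, had the largest KO difference of the 10, in brown fat. Its signals were 853.0 in KO and 1775.1 in WT brown fat, 1518.6 in KO and 1799.2 in WT subcutaneous fat, and 1811.6 in KO and 2230.2 in WT epididymal fat. The KO brown array was the lowest of the 6, and the WT brown array lay beside the WT subcutaneous one. Klf15 was 2.08-fold lower in KO brown fat (log2 -1.06), 1.18-fold lower in KO subcutaneous (-0.24) and 1.23-fold lower in KO epididymal fat (-0.30). The brown value exceeded the SD between probe sets and the white values did not, and the single probe set of Klf15 left no second reading. Whether the brown and white differences differ was not tested, since each depot had 1 array per genotype.

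Over the depots Klf15 was 1.45-fold lower in KO (-0.53 ± 0.45 SD, n = 3 depots), with an unadjusted p of 0.0424 and an adjusted p of 0.590 in limma over 13233 genes. Its brown-to-white difference was -0.57 ± 0.21 SE (limma adjusted p = 0.0736). That was 1.94-fold lower in the KO arrays and 1.13-fold lower in the WT arrays. Without the brown WT array it was -0.96 with an adjusted p of 0.0190, and without the brown KO array -0.17 with an adjusted p of 0.443.

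Markers of skeletal muscle, a tissue that also expresses Klf15, moved with genotype in brown fat. The 9 muscle markers summed to 657.9 in KO and 17851.8 in WT brown fat, to 66255.6 and 57111.6 in KO and WT subcutaneous fat, and to 2201.2 and 5269.5 in KO and WT epididymal fat. In KO brown fat Myh4, Myh1, Tnnt3, Tnni2 and Myh2 were at or under the floor, with 4 of 9 markers above it against 9 of 9 in WT brown fat. The muscle sums were highest in subcutaneous fat, where Klf15 had 1518.6 in KO and 1799.2 in WT. That is a comparison between depots, not one of KO against WT within brown fat. The part of muscle RNA in the Klf15 difference was not tested.

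Zfp423, the precursor commitment factor, was the only one of the 10 higher in KO in all 3 depots. Its signals were 762.2 in KO and 579.5 in WT brown fat, 1541.5 in KO and 1227.6 in WT subcutaneous fat, and 2155.5 in KO and 1336.0 in WT epididymal fat. It was 1.32-fold higher in KO brown (log2 0.40), 1.26-fold in KO subcutaneous (0.33) and 1.61-fold in KO epididymal fat (0.69), each larger than the SD between probe sets. Over the depots the mean was 0.47 ± 0.19 SD (n = 3 depots), 1.39-fold, with an unadjusted p of 0.0150 and an adjusted p of 0.524 in limma over 13233 genes. It had a single probe set. Under quantile normalization and median centring Zfp423 was again higher in KO in all 3 depots, though by 0.18 in subcutaneous fat after median centring.

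Between brown and white fat Zfp423 fell, 2.30-fold (-1.20 ± 0.14 SE, limma adjusted p = 0.00197, 2 against 4 arrays), 2.39-fold in the KO arrays and 2.21-fold in the WT arrays, and no brown value reached a white one. The 7 measured precursor and fibroblast markers summed to 11391.4 in KO and 17488.8 in WT brown fat, to 36636.7 and 45778.7 in KO and WT subcutaneous fat, and to 37907.6 and 41627.9 in KO and WT epididymal fat. All 7 fell in brown against white fat, as did all 7 macrophage markers, which summed to 7813.5 in KO and 9960.3 in WT brown fat against 40101.8 to 53685.8 on the white arrays. In bulk tissue, fewer cells of a type and less RNA per cell cannot be told apart, and the part of these cells in the lower Zfp423, Cebpd and Klf4 of brown fat was not tested. Between KO and WT, 7 of 7 precursor markers were lower in KO in brown and in subcutaneous fat. In epididymal fat 4 of 7 were lower and 3 higher. Of all measured genes, 7392 of 13779 in brown, 6293 of 13872 in subcutaneous and 7067 of 13245 in epididymal fat were lower in KO.

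KO against WT, counted over the factors, gave few differences of size. At least 1.5-fold, in brown fat 1 of 10 factors was lower (Klf15) and 0 higher, against 8.88% and 4.88% of all measured genes. In subcutaneous fat 1 of 10 was higher (Klf5, near the floor) and 0 lower, against 8.73% and 3.79%. In epididymal fat 1 of the 9 measured was higher (Zfp423) and 0 lower, against 4.38% and 6.61%. These shares are near those of all genes. At 2-fold, Klf15 in brown fat was the only factor past the threshold in any depot. Of all genes, 1.11% were that much higher and 2.42% lower in brown, 2.21% and 0.75% in subcutaneous, and 0.883% and 1.44% in epididymal fat.

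Over depots, 0 of 10 factors passed limma's adjusted threshold in either direction, as did 0% of all genes, the smallest adjusted p being 0.443. At an unadjusted p under 0.05, 1 factor was higher (Zfp423) and 1 lower (Klf15), against 3.80% and 4.53% of genes. On simulated data the same fit called 52% of 200 genes changed by 1 and 77.5% of 200 changed by 2 on the log2 scale. Those data had normal errors, the SDs of the fit shuffled over genes, and 12833 unchanged genes. The largest difference of a factor over depots was -0.53 (Klf15), smaller than either simulated size. The simulation therefore gives no rate of detection for differences as small as those of the factors. Cebpa, Cebpb, Cebpd, Klf15 and Ebf1, 5 of 10, were lower in KO in all 3 depots, against 15.8% of genes, though under median centring Cebpb and Cebpd lost this and Stat5a gained it (4 of 10, against 9.73%), and under quantile normalization Cebpd lost it (4 of 10, against 14.2%). Zfp423, 1 of 10, was higher in all 3, against 14.8%. The median log2 difference of the factors was -0.25 in brown, -0.06 in subcutaneous and -0.10 in epididymal fat. The medians of all genes were -0.03, 0.04 and -0.02. Median centring turned the epididymal median of the factors to 0.04, and moved that of all genes to 0.11.

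**Figure D3:**
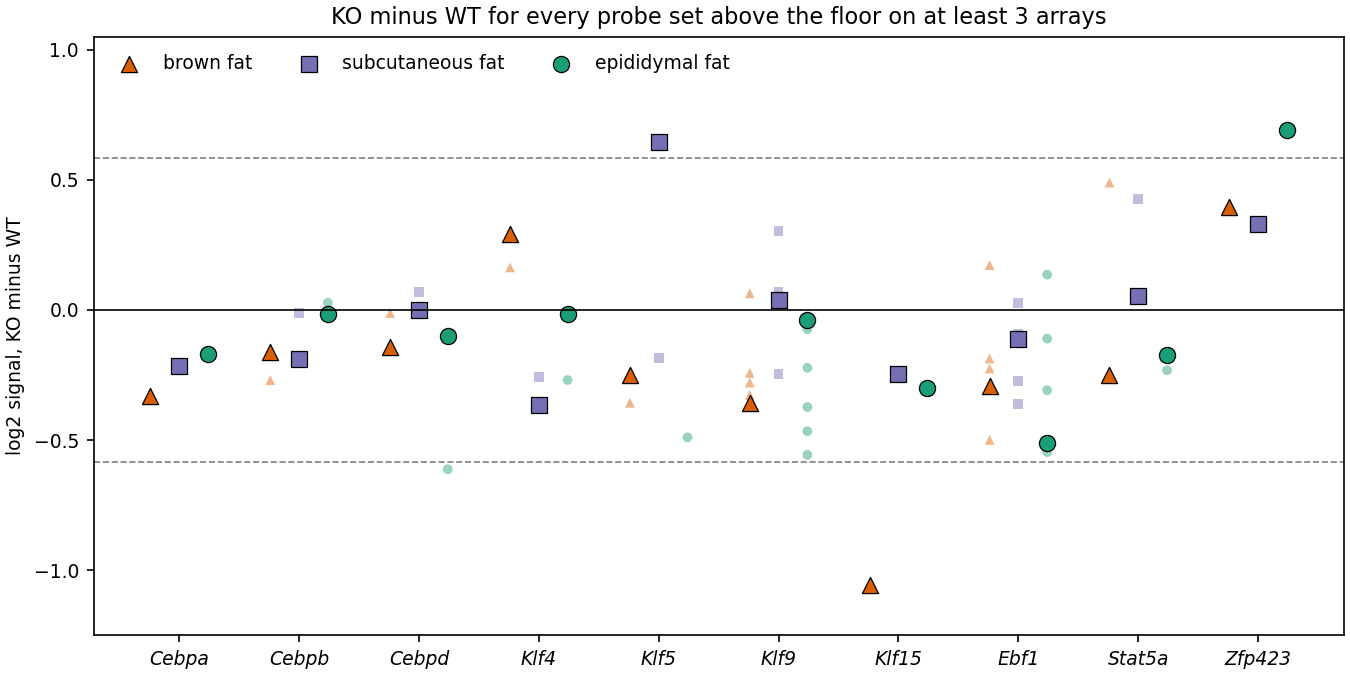
Log2 signal of KO minus WT for each factor in brown (triangles), subcutaneous (squares) and epididymal (circles) fat. Large symbols are the brightest probe set, small pale ones the other sets above the floor on at least 3 arrays, and dashed lines mark 1.5-fold. Klf15 in brown fat lies lowest at -1.06, and Zfp423 lies above 0 in each depot.

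No factor passed between the white depots. In subcutaneous against epididymal fat, 0 of 10 passed limma's adjusted threshold in either direction and 0 had an unadjusted p under 0.05, against 3.91% of all genes higher and 1.16% lower at the adjusted threshold and 12.6% and 8.97% at the unadjusted one. The smallest adjusted p of a factor was 0.299, for Cebpa, at -0.30. Zfp423 also stood at -0.30 (limma adjusted p = 0.350).

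Of the 12 other KLF genes tested, 7 fell in brown fat and 0 rose, against 31.2% and 21.5% of all genes, with a median log2 difference of -0.51, against -0.11 for all genes. Klf6, a factor that promotes fat cell formation, had 753.9 in KO and 608.4 in WT brown fat against 1751.2 to 2485.3 on the white arrays, 3.09-fold lower (limma adjusted p = 0.000617). Klf2 and Klf3, which restrain fat cell formation, fell 1.95-fold (limma adjusted p = 0.0027) and 1.49-fold (limma adjusted p = 0.0163), and Klf7, Klf12, Klf14 and Klf16 were the others that fell. Klf6 was higher in KO in each depot, by 0.31 in brown, 0.29 in subcutaneous and 0.27 in epididymal fat, within the SD between probe sets and not past limma's threshold (adjusted p = 0.590). The C/EBP relatives Cebpg and Ddit3 differed by no more than 0.23 between KO and WT in any depot and did not pass between brown and white fat.

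Among 17 other activators of adipogenesis tested, 4 rose and 7 fell in brown fat, and among 17 repressors 1 rose and 9 fell, where 21.5% of all genes rose and 31.2% fell. Pparg, the receptor at the centre of the cascade, had 6418.8 in KO and 6653.2 in WT brown fat against 2950.5 to 4285.0 on the white arrays, 1.82-fold higher (limma adjusted p = 0.0041). Prdm16, the partner of C/EBPβ in brown fat cells, was 3.83-fold higher (limma adjusted p = 0.000599). Zfp521, which encodes a relative of ZFP423 that opposes fat cell formation, was 6.98-fold lower (limma adjusted p = 0.000458). Both lists had 0 calls between KO and WT in limma.

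Irf4, a repressor of fat cell formation that is also high in lymphocytes and macrophages, was lower in KO in each depot. It had 280.4 in KO and 461.6 in WT brown fat, 443.0 in KO and 785.8 in WT subcutaneous fat, and 242.8 in KO and 773.4 in WT epididymal fat. It was 1.65-, 1.77- and 3.19-fold lower in KO in those depots (limma adjusted p = 0.463 over depots). Nr2f2, which encodes the nuclear receptor COUP-TFII, was lower by 0.86 in KO brown and by 0.59 in KO epididymal fat on the log2 scale. Of 18 repressors measured in each depot, 2 in brown, 2 in subcutaneous and 4 in epididymal fat were at least 1.5-fold lower, against 8.88%, 3.79% and 6.61% of all genes, and 0 were that much higher. The activators held 1 such lower gene in brown fat (Zbtb16), 0 in subcutaneous and 1 higher gene in epididymal fat (Egr2).

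Genes downstream of the factors were looked at by list. Of 16 adipocyte genes bound by C/EBPα and PPARγ, 10 were called higher and 2 lower in brown fat, against 21.5% and 31.2% of all genes, with a median brown-minus-white log2 difference of 0.64 that shrank to 0.05 under quantile normalization. Between KO and WT the medians were -0.09 in brown, 0.05 in subcutaneous and -0.09 in epididymal fat. Under median centring all 3 changed sign, to 0.05, -0.10 and 0.04. The medians of all genes changed sign with them, from -0.03, 0.04 and -0.02 to 0.11, -0.12 and 0.11. Lep, the leptin gene, was past 1.5-fold in each depot, with 404.1 in KO and 210.7 in WT brown fat, 9177.6 and 3857.5 in KO and WT subcutaneous fat, and 14420.7 and 6063.3 in KO and WT epididymal fat. Retn, which encodes resistin, was 1.90-fold lower in KO brown fat.

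Among STAT5-responsive genes, Cish, Igf1 and Socs2 were lower in KO brown fat, where the probe sets of Stat5a itself disagreed, the brighter at -0.25 and the dimmer at 0.49. Cish, a feedback inhibitor of cytokine signalling, had 880.8 in KO and 1975.3 in WT brown fat, 2.24-fold lower. Igf1, which encodes the growth factor IGF-1, had 514.3 in KO and 1100.7 in WT brown fat, 2.14-fold lower. Socs2, an inhibitor of growth hormone signalling, had 272.2 in KO and 556.1 in WT brown fat, 2.04-fold lower, and these 3 of 7 measured genes were past 1.5-fold there against 8.88% of all genes. On the same arrays 9 of 9 muscle, 7 of 7 precursor and fibroblast and 7 of 7 macrophage markers were lower in KO. So were 8 of 9 brown adipocyte, 5 of 6 adipocyte and 6 of 7 endothelial markers, and 7392 of 13779 measured genes. Of B cell markers 3 of 6 were lower, of epithelial 3 of 5 and of mesothelial 2 of 4. Of T cell markers 0 of 2 were lower, and of seminal vesicle markers 0 of 5. The part of these cells in the differences was not tested. Cish, Igf1 and Socs2 were also lower in the KO arrays of both white depots, Cish by 1.77-fold in epididymal fat. Of the 7 measured genes of the list, 4 were lower and 3 higher in KO brown fat. Ccnd1, which encodes cyclin D1, was among the higher ones, by 1.71-fold. The median of the list was -0.47 in brown, -0.32 in subcutaneous and -0.10 in epididymal fat. The last turned to 0.03 under median centring, which moved the epididymal median of all genes to 0.11. In limma over depots 0 of 8 genes passed (smallest adjusted p = 0.463).

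Of the 5 measured genes of amino acid breakdown and glucose uptake linked to KLF15, 2 were at least 1.5-fold lower in KO brown fat, against 8.88% of all genes. Prodh, which encodes proline dehydrogenase, had 496.8 in KO and 918.9 in WT brown fat, 1.85-fold lower, and Hpd, an enzyme of tyrosine breakdown, had 82.2 in KO and 186.7 in WT, 2.27-fold lower. Hpd went the other way in epididymal fat, 1.82-fold higher in KO. Slc2a4 was higher in KO brown fat, at 9361.8 in KO and 7953.6 in WT (log2 0.24). The median of the list was -0.26 in brown, 0.06 in subcutaneous and -0.30 in epididymal fat. Under median centring these were -0.12, -0.09 and -0.10, so the subcutaneous one turned. The medians of all genes were then 0.11, -0.12 and 0.11. In limma over depots 0 passed.

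**Figure D4:**
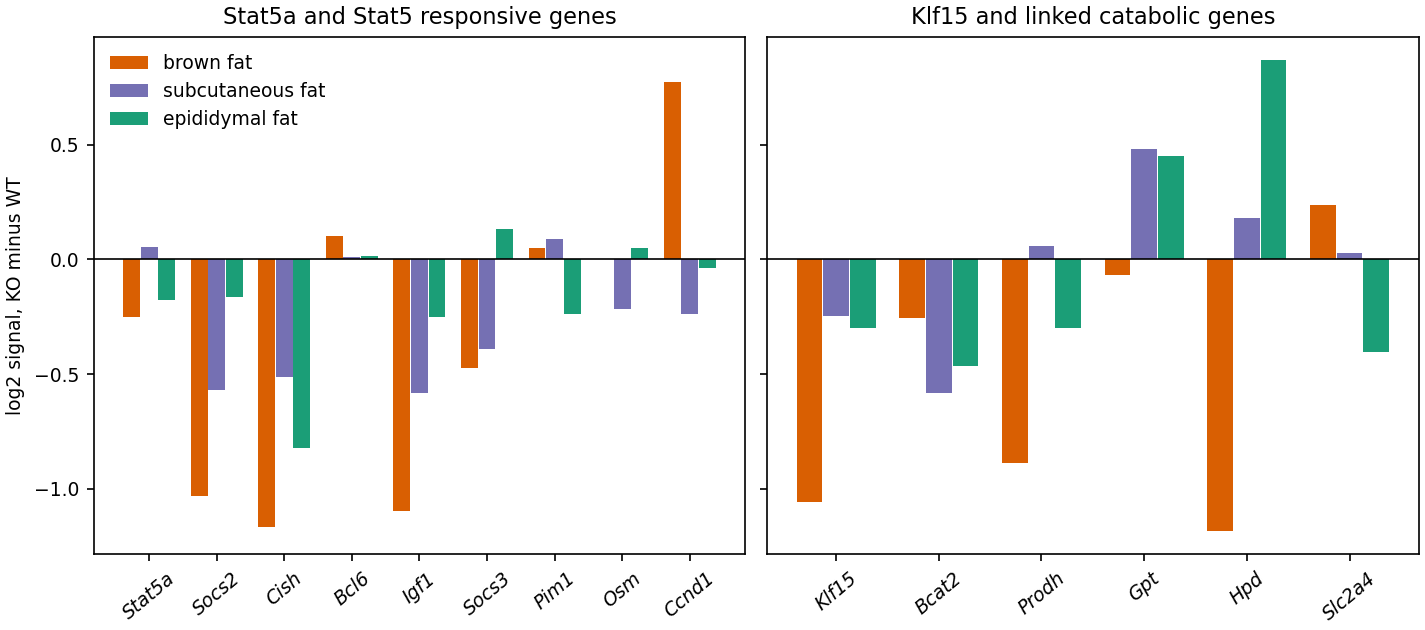
Log2 signal of KO minus WT in brown, subcutaneous and epididymal fat for Stat5a with STAT5-responsive genes (left) and for Klf15 with its linked genes (right), 1 array per genotype and depot behind each bar. Cish, Igf1, Socs2, Prodh, Hpd and Klf15 reach -0.89 or lower in brown fat, while Ccnd1 is higher there. Osm has no bar in brown fat, where it was not measured.

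Cebpd, Klf9 and Klf15 answer to glucocorticoids, and Cebpb, Cebpd and Klf4 to the stimuli that induce immediate early genes, so both programmes were set beside them. Fkbp5, a strongly glucocorticoid-induced gene, had 891.5 in KO and 490.7 in WT brown fat and 2130.1 in KO and 1198.3 in WT subcutaneous fat, but 2138.6 in KO and 2786.1 in WT epididymal fat. Per1, a clock gene that glucocorticoids raise, was lower in KO, with log2 differences of -0.23 in brown, -0.21 in subcutaneous and -0.31 in epididymal fat. The first 2 are within the SD between probe sets. Mt2 was higher in KO in the same depots, by 0.49, 0.76 and 1.01 (limma adjusted p = 0.463 over depots). The glucocorticoid-induced genes had no common direction over the depots. Higher in KO were 5 of 12 in brown, 10 of 13 in subcutaneous and 6 of 13 in epididymal fat. Of all measured genes, 6387 of 13779, 7579 of 13872 and 6178 of 13245 were higher there. The medians of the list were -0.04 in brown, 0.43 in subcutaneous and -0.31 in epididymal fat. The brown one turned to 0.10 under median centring, which moved the brown median of all genes to 0.11.

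Of 15 immediate early genes measured in brown fat, 13 were higher in KO, against 6387 of 13779 measured genes. At least 1.5-fold higher were 5 of them, against 4.88% of all genes. Fos had 292.4 in KO and 99.7 in WT brown fat, 2.93-fold higher, Egr1 was 2.73-fold and Dusp1 2.29-fold higher, and Nr4a3 was 13.0-fold lower, at 132.6 in KO and 1726.1 in WT. Beside them Klf4 was higher by 0.29 in KO brown fat and Cebpb and Cebpd lower by 0.16 and 0.14 on the log2 scale. The medians of this list were 0.35 in brown, 0.13 in subcutaneous and 0.04 in epididymal fat. The subcutaneous one turned to -0.02 under median centring, which moved the subcutaneous median of all genes to -0.12. Neither list had a call between KO and WT in limma.

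Genes whose pattern over the 6 arrays was most like that of a factor were ranked by Pearson r among 8785 genes with an SD of at least 0.3. The 6 arrays fall into brown and white, so a high r is common for a factor that differs between them. For Cebpb the nearest was Cox17, which encodes a copper chaperone of cytochrome oxidase (r = 0.9996), and 1664 genes, 18.9%, had an r of at least 0.9. For Cebpd it was Cmklr1, the chemerin receptor gene (r = 0.9997), among 2018 genes, 23.0%. For Zfp423 it was Tmem165 (r = 0.99), among 898. Cebpa and Klf15, which overlapped between brown and white, had few such genes, 13 for Cebpa, led by Sstr4 (r = 0.97), and 43 for Klf15, led by Slc4a11 (r = 0.97).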

How the data were processed

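Per the submitters' processing notes, the authors computed the deposited intensity values, 1 linear value per probe set and array, with MAS5 in Affymetrix Expression Console. The sources used here give neither versions nor the build of the array design. On each array the 2%-trimmed mean of the deposited values was 500.0, so the arrays hold no trace of differences in RNA per cell. Names came from the platform annotation, and symbols were checked in RefSeq tables of GRCm38.p6.

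Signals were raised to a floor of 63.2 and put on the log2 scale, and the brightest probe set by mean log2 signal stood for its gene. A depot counted as measuring a gene if its KO or its WT array exceeded the floor, and folds with the dimmer array at the floor are lower bounds. limma 3.58.1 (R 4.3.3) was fitted with depot and genotype as terms to the 13233 genes that exceeded the floor on 3 or more arrays, with Benjamini-Hochberg adjustment over all of them, and was tested on simulated data. A second fit took every probe set as a feature. The SD between probe sets was pooled over genes with several sets. Between 12651 and 13602 genes lay above the floor per array. Having 6 arrays limits how precise any value can be.

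Every probe set of the 10 factors may be named, with up to 4 genes per list and depot past 1.5-fold, the family relatives, the 3 most alike genes per factor, and Kdm4b. Ebf2, Pparg, Prdm16, Zfp521, Stat5b, Ebf3, Per1, Slc2a4 and Ighm were named after their values were seen. The factors and lists were chosen with earlier results of these data known. Tables were made in Python 3.11.15 with pandas 2.3.3 and drawn with matplotlib 3.10.9.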

Additional observations from a re-analysis of the deposited data

How the results depend on the processing

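Between KO and WT over depots, 0 factors passed limma under all 13 alternatives tried. Klf15, Ebf1, Cebpa, Cebpb and Cebpd kept a negative and Zfp423 a positive difference there, the Klf9 difference vanished without brown fat (-6.9e-05), and Cebpb, Cebpd and Zfp423 passed in brown against white fat under all 16. The number of factors called between brown and white fat ranged from 4 to 7, and from 5 to 6 with each array left out in turn. In single depots, 0 factors passed 2-fold in epididymal fat, and 0 passed in subcutaneous fat under quantile normalization, median centring, a floor at the 20th or the 60th percentile, averaged probe sets, or 2-fold. Over depots the KO-minus-WT direction turned for Klf4 under median centring (0.012) and without subcutaneous fat (-0.19 to 0.14 over the depots left out), for Klf5 with the lower floor (-0.36), the mean of probe sets (-0.071) and no floor (-0.30), and for Stat5a with the mean of probe sets (0.053), which also moved its brown value to 0.12. With the lower floor Klf5 in subcutaneous fat was -0.18. Between brown and white fat it turned for Cebpa (-0.19) and Klf9 (-0.092) under quantile normalization, for Klf5 with the lower floor (-0.15) and no floor (-0.13), and for Ebf1 with the mean of probe sets (-0.13). Klf15 was called with the higher floor (adjusted p = 0.0339) and an intensity trend (adjusted p = 0.0193), and Klf5 under quantile normalization (adjusted p = 0.0469), all from limma. Between the white depots, where no factor was called, it turned for Cebpb (0.029) and Klf9 (0.0052) under quantile normalization, for Stat5a under median centring (-0.17), and for Stat5a (-0.19) and Klf9 (0.046) with the mean of probe sets. With single arrays left out that difference ranged from -0.15 to 0.015 for Cebpb, -0.16 to 0.078 for Klf9, -0.26 to 0.052 for Ebf1 and -0.40 to 0.11 for Klf4. The cause of these turns was not tested. Over all genes, an intensity trend gave 19 higher and 14 lower calls between KO and WT and median centring 4 higher, 0 of them among the factors. With the epididymal KO array left out, 29 genes were higher and 5 lower in subcutaneous against epididymal fat, against 517 and 153 with all arrays. Median centring shifted the median of all genes to 0.11 in brown, -0.12 in subcutaneous and 0.11 in epididymal fat for KO minus WT. KO and WT were compared within depots, since depot was a term of the fit.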
